A study of Homo sapiens with 9 samples.

Results

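Genes of DNA replication and S phase were followed in GBM43 cells, an established human glioblastoma line, grown in 3-dimensional hyaluronic acid invasion devices. The members were 46 genes chosen by symbol, of 58735 in the expression table: 10 of origin licensing, 6 of helicase activation, 9 polymerase and primase subunits, 10 fork factors, 5 of nucleotide supply, 3 of chromatin copying and 3 of the entry into S phase (G1/S control). MK801 devices received 50 µM MK801, which blocks the channel of NMDA-type glutamate receptors, and their core and invasive cells were pooled, because too few cells had invaded to be taken apart. Control devices received DMSO as vehicle according to the treatment notes, or control culture medium according to the series' design. They were cut with a scalpel into an invasive fraction and a core fraction. Each of these 3 groups has 3 libraries, and no time in culture, genetic change or second cell line is given. Levels are FPKM (fragments scaled to gene length and library depth), so they can be set side by side between genes of a library. Members were tested where they reached 1 FPKM in at least 3 of the 9 libraries, which 44 did, of 11845 genes in all. The MK801 libraries thus mix what the control devices give apart, and a difference from either fraction cannot be told apart from a difference in the share of invaded cells.

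Chromosomes are copied once per cycle. Before S phase, the origin recognition complex (ORC), CDC6 and CDT1 load the ring-shaped MCM2 to MCM7 helicase on origins, a step called licensing. At the start of S phase CDC45 and the GINS complex join the ring and switch it on. Primase and polymerase alpha then lay down primers, and polymerases epsilon and delta extend them, held to DNA by the PCNA clamp that replication factor C (RFC) loads. Many of these genes are transcribed at the G1/S boundary by E2F factors, whose activity the retinoblastoma protein and cyclin E kinases set, and their summed transcripts are widely read as a sign of how many cells of a tumour are in cycle.

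The E2F recognition letters TTTCCCGC, TTTCGCGC, TTTGCCGC or TTTGGCGC, read on both strands, were searched in RefSeq promoters (GRCh38.p14) of 300 bases, 250 before and 50 after the gene's start. Of the 46 members, 39 matched an entry, with 53 promoters among them. These letters stood in 21 of the 53 (39.6%), against 5.08% of the promoters of all genes tested and 3.31% of all promoters. CCAAT, the box read by the factor NF-Y, stood in 54.7% of members' promoters and 34.9% of those of genes tested. The letters TTTGAA or TTCGAA, the cell cycle homology element of genes of mitosis, stood in 5.66% of members' promoters and 11.4% of those of genes tested. E2F letters can overlap one another on opposite strands, and a match is a description of the letters only. The last 150 bases before the start are shown for 6 members whose promoters carry E2F letters. E2F1, TYMS, PCNA and POLE stand for members whose values are given in full below, while MCM6 and POLA1 were added after their values were seen. Both hold TTTGGCGC on 1 strand or the other, but MCM6 has 4 matches to the E2F letters and POLA1 has 1. Their log2 differences between invasive and core were unlike, 0.70 and 0.00, and 1.19 and 0.53 with the GC trend removed (below). Between MK801 and invasive they were -0.78 and -0.54. Capitals mark the E2F letters, and the lines run 5′ to 3′.
E2F1, chr20:33686386-33686535, minus strand: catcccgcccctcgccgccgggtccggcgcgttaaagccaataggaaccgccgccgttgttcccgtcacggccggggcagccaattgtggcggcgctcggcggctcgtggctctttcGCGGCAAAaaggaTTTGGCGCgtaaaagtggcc
MCM6, chr2:135876444-135876593, minus strand: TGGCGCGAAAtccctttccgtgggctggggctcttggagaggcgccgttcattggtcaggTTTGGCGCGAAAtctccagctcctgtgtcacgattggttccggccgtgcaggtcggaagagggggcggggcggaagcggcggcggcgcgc
POLE, chr12:132687343-132687492, minus strand: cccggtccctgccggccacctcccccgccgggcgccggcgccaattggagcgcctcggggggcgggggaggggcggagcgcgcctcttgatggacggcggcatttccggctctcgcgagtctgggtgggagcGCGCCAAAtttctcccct
POLA1, chrX:24693768-24693917, plus strand: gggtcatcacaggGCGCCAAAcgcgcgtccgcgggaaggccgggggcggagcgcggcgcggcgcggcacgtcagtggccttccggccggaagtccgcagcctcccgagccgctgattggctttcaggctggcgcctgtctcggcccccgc
PCNA, chr20:5126623-5126772, minus strand: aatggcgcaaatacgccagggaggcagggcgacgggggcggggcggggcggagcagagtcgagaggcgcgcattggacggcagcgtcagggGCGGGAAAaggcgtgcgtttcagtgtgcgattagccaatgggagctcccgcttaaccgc
TYMS, chr18:657503-657652, plus strand: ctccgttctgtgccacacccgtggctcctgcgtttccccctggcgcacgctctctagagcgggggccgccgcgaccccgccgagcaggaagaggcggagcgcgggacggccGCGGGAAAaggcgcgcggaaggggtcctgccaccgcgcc

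The E2F letters of these 6 promoters lay at unlike distances from the start. They began 33 and 20 bases before it in E2F1, 18 in POLE, 39 in TYMS, 59 in PCNA and 137 in POLA1. In MCM6 they began 148, 90 and 86 bases before the start, where the last pair overlaps on opposite strands, and the first run is cut by the edge of the printed stretch. Members with E2F letters in a promoter (19 tested) had a median log2 difference of 0.87 between the invasive and core fractions and those without (19 tested) 0.52, and between MK801 and the invasive fraction the medians were -0.78 and -0.56. The members' differences between the fractions ran with transcript GC content (Spearman's rho 0.831, below). These medians were not taken with that trend removed, so they do not tell the E2F letters from GC content.

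The libraries themselves differed. Recovered depth ranged from 15.6 to 54.4 M gene-assigned fragments per library (M, 1e6). The depth by which FPKM was scaled was not a constant share of it. It was 0.769 to 1.195 times the recovered depth in MK801, 0.788 to 1.065 times in invasive and 1.102 to 1.229 times in core libraries. At equal depth, 15161, 19031 and 21517 genes were detected in MK801 libraries 1, 2 and 3, 15975 to 19140 in invasive libraries and 20322 to 21414 in core libraries, and the fragment-weighted GC content of transcripts was 54.2, 53.1 and 50.5%, 52.7 to 54.4% and 49.8 to 51.1% in the same order of groups. MK801 libraries 1 and 3 thus stand at opposite ends of the range. Of 10 glioblastoma and glial markers, the mesenchymal markers VIM (897 to 2101 FPKM over the 9 libraries) and CD44 were abundant and SOX2 and EGFR low, while OLIG2 and CHI3L1 were at 0 fragments in all 9 and NES, GFAP, S100B and PROM1 under 1 FPKM in every library. Nothing states whether a group's libraries are separate cultures, and p-values then reflect library-to-library spread alone, which could be technical.

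In the invasive fraction of control devices, set against the core fraction, replication genes stood higher together. Of 44 members tested, 40 had a higher mean (49.1% of all genes did), with a median log2 difference of 0.68, against -0.02 over all genes. The 3 invasive libraries were all above the 3 core libraries for 29 members (32.0% of all genes), and all below for 0 (32.8% of all genes). TK1, MCM2, MCM5 and E2F1 stood furthest apart, while POLA1 and PRIM1 had like means in both fractions, an order that changed once the GC trend was removed (below). Limma on all 9 libraries, adjusted by Benjamini-Hochberg over 11845 genes, called 0 members and 0 genes (0.0%). At an unadjusted p under 0.05 it gave 25 members higher (20.3% of all genes) and 0 lower (17.4%), and voom on recovered fragments also called 0. The spread of the MK801 libraries enters that fit. Fitted on the 6 control libraries alone, limma called 26 members higher (26.3% of all genes) and 0 lower (25.9%), and without MK801 replicate 1 or MK801 replicate 3 the 9-library fit called 24 members higher (20.2% and 21.9% of all genes). Rescaled to TPM, which moved the median of all genes to -0.41, 30 of 46 members were higher (33.1% of genes), and their median was 0.80 above that of all genes, against 0.70 in FPKM. In TPM limma gave 17 members higher at an unadjusted p under 0.05 (1685 of 15612 genes) and 0 lower (2750 genes). In bulk RNA, fewer cells in S phase and less of these transcripts per cell cannot be told apart.

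In MK801 libraries, set against the invasive fraction, 43 of 44 members had a lower mean and 1, CCNE1, a higher one, with a median log2 difference of -0.64 against 0.00 over all genes. The 3 MK801 libraries were all below the 3 invasive libraries for 19 members (5.63% of all genes) and all above for 1 (5.22%). At an unadjusted p under 0.05 limma gave 21 members lower (4.51% of all genes) and 0 higher (3.75%), but after adjustment it called 0 members and 0 genes (0.0%), with a smallest member adjusted p of 0.251, and voom also called 0. Without MK801 replicate 1, 1 member was called, MCM5 (0.135% of genes were called lower; log2 -1.69, SE 0.29, limma adjusted p = 0.0487). Set against the core fraction, the members had no common direction: 26 were higher and 18 lower in MK801 libraries (50.3% of all genes were higher), with a median of 0.10. All 3 MK801 libraries were above the core libraries for 1 member (9.89% of all genes) and below for 3 (8.82%). Limma called 0 members here (0.0% of genes), with 1 higher and 5 lower at an unadjusted p under 0.05 (10.6% of all genes each way), and voom called 0. Without MK801 replicate 3 it called 14 members higher (25.2% of genes) and 3 lower (24.9%). In TPM 16 of 46 members were higher than in core, where 30.3% of genes were. Each group enters a pair of the 3 comparisons, so these share libraries.

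**Figure D1:**
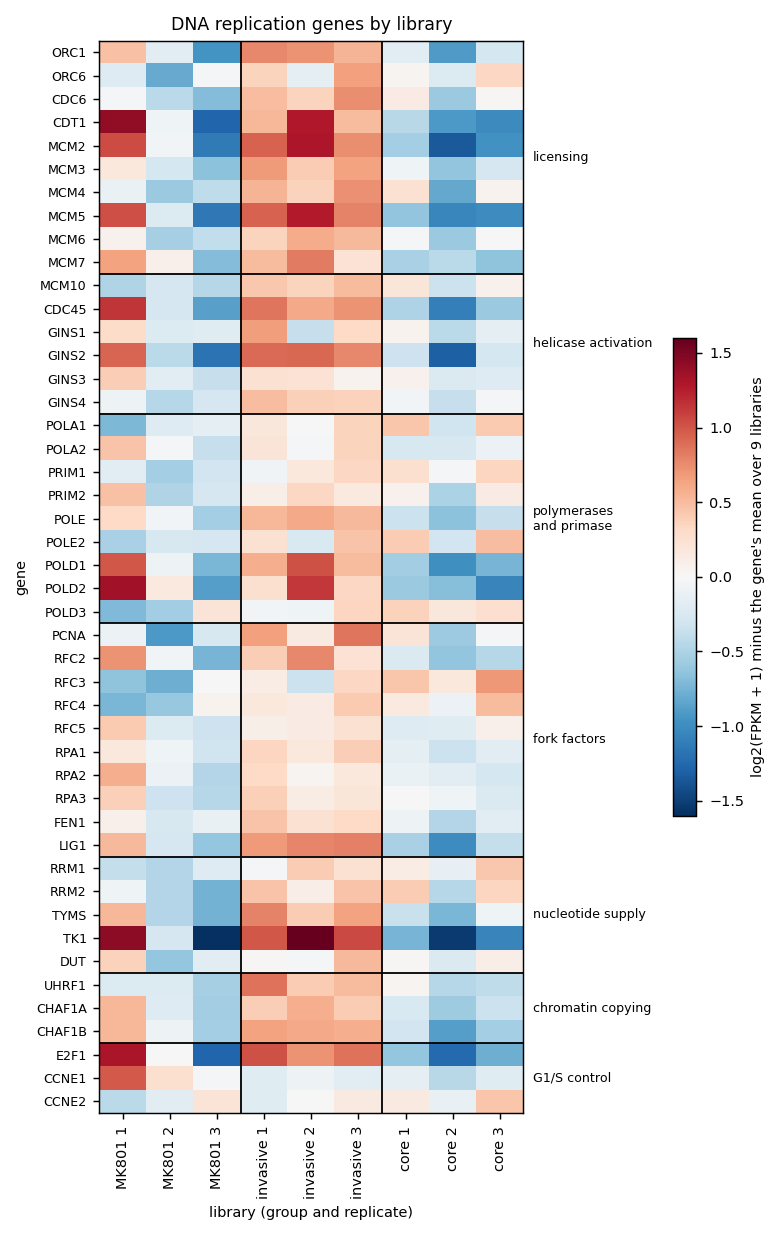
Each row is 1 of the 46 members, ordered by class, and each column a library, MK801 at the left, then invasive, then core, with colour for log2(FPKM + 1) minus the gene's mean over the 9 libraries. Most licensing, fork and chromatin genes are above their mean in the 3 invasive libraries and below it in core, and MK801 replicate 1 is the highest of the MK801 libraries for 35 of the 44 tested members.

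Licensing genes differed between the fractions in 1 direction. All 10 were higher in the invasive fraction, 9 without overlap (32.0% of all genes), and their median log2 difference was 0.98. MCM2 (ENSG00000073111, chromosome 3, 127598223 to 127622436), a subunit of the MCM ring, had 41.0, 18.7 and 8.27 FPKM in MK801 libraries, 38.2, 49.1 and 33.1 in invasive and 13.0, 7.01 and 9.43 in core libraries. The invasive and core libraries did not overlap, and the MK801 libraries reached from inside the invasive range to inside the core range. Invasive libraries averaged 40.1 ± 8.17 FPKM and core libraries 9.81 ± 3.01 (SD, n = 3 each), a 4.09-fold difference (log2 1.95, SE 0.46, limma adjusted p = 0.0921). MCM5 had 23.9, 9.42 and 4.5 FPKM in MK801, 22.4, 28.4 and 20.1 in invasive and 6.88, 4.91 and 5.08 in core libraries. Its invasive libraries again lay above core, with MK801 replicate 1 inside the invasive range and replicate 3 below all of core (invasive over core log2 1.89, SE 0.44, limma adjusted p = 0.0906).

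MCM3 had 31.7, 23.1 and 17.5 FPKM in MK801, 46, 37.8 and 44.5 in invasive and 26.8, 17.8 and 23.3 in core libraries. For this subunit every MK801 library lay below every invasive one (log2 -0.84, SE 0.26, limma adjusted p = 0.375), and the invasive libraries lay above core (log2 0.90, SE 0.26, limma adjusted p = 0.106). MCM7 had 86.3, 57.9 and 33.7 FPKM in MK801, 78.5, 98.0 and 64.8 in invasive and 37.9, 40.5 and 34.6 in core libraries. It was the most abundant of the 6 ring genes in all 9 libraries, 5.42 to 11 times the least abundant one, which was MCM6 or MCM5. The ring genes summed to 202, 122 and 78.1 FPKM in MK801, 213, 241 and 194 in invasive and 106, 81.2 and 92.3 in core libraries. The sum therefore separated invasive from core without overlap, with MK801 replicate 3 below all 3 core libraries. MCM7 shares 8.94% of its exon bases with AP4M1 on the other strand and MCM2 22.7% with AC023593.1, and since strand use is not stated, those levels are less certain.

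Among the loaders of the ring, ORC1 and CDC6 had like patterns, while CDT1 spread further in MK801 libraries and ORC6 overlapped between the fractions. ORC1, the largest ORC subunit, had 6.24, 3.65 and 1.71 FPKM in MK801, 7.89, 7.64 and 6.62 in invasive and 3.63, 1.79 and 3.30 in core libraries. CDC6, the ATPase that joins ORC, had 2.92, 1.97 and 1.48 FPKM in MK801, 4.64, 4.14 and 5.73 in invasive and 3.41, 1.67 and 3.07 in core libraries. Both were lower in every MK801 library than in any invasive one. CDT1, which brings MCM to ORC and is destroyed in S phase, had 73.0, 25.5 and 10.5 FPKM in MK801, 39.0, 66.2 and 38.3 in invasive and 19.3, 13.6 and 12.7 in core libraries. MK801 replicate 1 had more CDT1 than any control library, and replicate 3 less. Geminin, the CDT1 inhibitor encoded by GMNN, did not follow it, and the ratio of CDT1 to GMNN was 15, 11.5 and 2.67 in MK801, 7.93 to 17.5 in invasive and 2.04 to 3.91 in core libraries. CDT1 transcripts had 65.2% GC, and the invasive over core log2 of CDT1 moved from 1.57 to 0.81 with the GC trend (below) removed. The ratio was not taken with that trend removed. ORC6, a small ORC subunit, was the licensing gene whose invasive and core libraries overlapped, with 0.646 to 1.84 FPKM in MK801, 1.61 to 3.52 in invasive and 1.46 to 2.60 in core libraries. MCM4 and MCM6 were 1.63-fold and 1.68-fold higher in the invasive than the core fraction, and their MK801 libraries were all below the invasive ones.

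Of the 6 genes of helicase activation, 6 were higher in the invasive than the core fraction and 4 without overlap (32.0% of all genes), with a median of 0.51. MCM10 (ENSG00000065328, chromosome 10, 13161554 to 13211104), which helps the loaded helicase start, had 0.687, 0.962 and 0.728 FPKM in MK801, 2.18, 2.03 and 2.36 in invasive and 1.69, 0.865 and 1.49 in core libraries. All MK801 libraries, replicate 1 included, were below all invasive libraries (0.362-fold, log2 -0.83, SE 0.21, unadjusted p = 0.00259, limma adjusted p = 0.277). GINS2, a subunit of the GINS complex, had 17.8, 6.31 and 3.36 FPKM in MK801, 17.5, 17.7 and 15.8 in invasive and 6.87, 3.00 and 7.12 in core libraries. Here MK801 replicate 1 was as high as the invasive libraries (MK801 over invasive log2 -1.09, SE 0.47, limma adjusted p = 0.564). GINS4, of the same complex, had 1.30, 0.769 and 1.01 FPKM in MK801, 2.43, 2.15 and 2.14 in invasive and 1.36, 0.883 and 1.38 in core libraries. CDC45, the GINS partner on the active helicase, was 3.52-fold higher in invasive than core libraries, without overlap. GINS1 and GINS3 overlapped between all groups but for the direction of their means, which were 1.46-fold and 1.34-fold higher in invasive libraries.

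**Figure D2:**
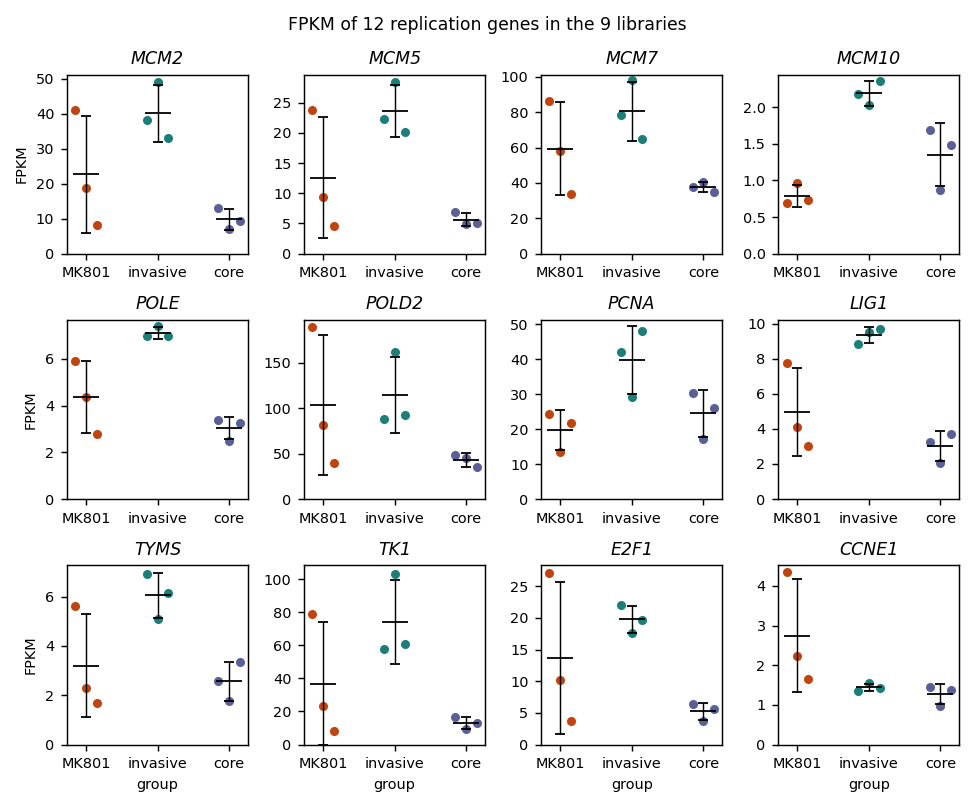
Each of 12 panels is a member described in the text, with FPKM on a vertical axis from 0, a point per library (replicates 1 to 3 from left to right), the group mean as a line and its SD as a bar (n = 3, the MK801 bar of TK1 being cut at 0), MK801 at the left, then invasive, then core. MCM2, MCM5, TK1 and E2F1 show invasive libraries above core and MK801 libraries spread over both, MCM10 shows all 3 MK801 libraries below the invasive ones, and CCNE1 shows all 3 above both fractions.

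The polymerase and primase genes split before the GC trend (below) was removed. POLE, POLD1 and POLD2 were higher in the invasive than the core fraction without overlap, and the other 5 tested subunits were not, so the class median was 0.15. For all genes that share was 32.0%, so 3 of 8 is near it. With the trend removed, POLE, POLD1 and POLD2 stood at log2 0.55, 0.71 and 0.70. PRIM2, POLE2, PRIM1 and POLA1 then stood at 1.06, 0.67, 0.62 and 0.53, and POLD3 at 0.14. POLE (ENSG00000177084, chromosome 12, 132623753 to 132687365), the catalytic subunit of the leading-strand polymerase epsilon, had 5.88, 4.38 and 2.79 FPKM in MK801, 6.98, 7.41 and 6.96 in invasive and 3.37, 2.5 and 3.27 in core libraries. It separated the 3 invasive libraries from all others (invasive over core log2 1.01, SE 0.24, limma adjusted p = 0.0917; MK801 over invasive log2 -0.64, SE 0.24, limma adjusted p = 0.477). POLD1, the catalytic subunit of polymerase delta, had 23.0, 10.4 and 6.23 FPKM in MK801, 16.9, 23.3 and 16 in invasive and 7.21, 5.09 and 6.18 in core libraries (invasive over core log2 1.46, SE 0.38, limma adjusted p = 0.098). POLD2, its accessory subunit and the most abundant member of the class, had 189, 81.9 and 39.5 FPKM in MK801, 88.0, 162 and 92.9 in invasive and 48.6, 45.5 and 34.8 in core libraries. MK801 replicate 1 was the highest of all 9 for POLD2, and the MK801 libraries overlapped both fractions (MK801 over invasive log2 -0.36, limma adjusted p = 0.962). Without MK801 replicate 3 that difference turned to 0.18.

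POLD3, another subunit of polymerase delta, had 2.45, 2.82 and 5.48 FPKM in MK801, 4.47, 4.36 and 6.17 in invasive and 6.30, 5.36 and 5.79 in core libraries. It went the other way from POLD1 and POLD2 between the fractions, by mean only, since the libraries overlapped (log2 -0.20, SE 0.26, limma adjusted p = 0.564). The ratio of POLD2 to POLD3 was 77.2, 29 and 7.22 in MK801, 15.1 to 37.2 in invasive and 6.01 to 8.49 in core libraries. Their transcripts had 58.8 and 45.3% GC, and this ratio was not taken with the GC trend removed. POLA1, the catalytic subunit of polymerase alpha, had 0.234, 0.767 and 0.823 FPKM in MK801, 1.30, 1.05 and 1.61 in invasive and 1.76, 0.634 and 1.72 in core libraries. Its invasive and core means were alike (log2 0.00, SE 0.27), in contrast to MCM6, and its 3 MK801 libraries were below all invasive ones. PRIM1, the catalytic primase subunit, had 1.74, 1.12 and 1.49 FPKM in MK801, 1.96, 2.46 and 2.86 in invasive and 2.68, 2.03 and 2.90 in core libraries. Its 3 MK801 libraries were below all 6 control libraries, as those of RRM1 were, which held for 2 of 44 members (0.971% of all genes), and limma gave an adjusted p of 0.577 against the invasive and 0.235 against the core fraction. POLE2, the second subunit of polymerase epsilon, had 0.287 to 0.548 FPKM in MK801, 0.564 to 1.54 in invasive and 0.493 to 1.61 in core libraries, and PRIM2, the large primase subunit, overlapped between all groups. POLA2, the regulatory subunit of polymerase alpha, was too low to test, with 0.320 to 1.33 FPKM in MK801, 0.679 to 1.18 in invasive and 0.420 to 0.589 in core libraries.

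Among the 10 fork factors, 9 were higher by mean in the invasive than the core fraction and 7 without overlap (32.0% of all genes), with a median of 0.45. LIG1 (ENSG00000105486, chromosome 19, 48115445 to 48170603), the ligase that seals Okazaki fragments, had 7.78, 4.09 and 3.00 FPKM in MK801, 8.81, 9.54 and 9.68 in invasive and 3.26, 2.05 and 3.72 in core libraries. The invasive libraries were above all 6 others. At 3.11-fold over core (log2 1.39, SE 0.29, limma adjusted p = 0.0794) its adjusted p was the smallest of any member. PCNA had 24.4, 13.4 and 21.7 FPKM in MK801, 42.1, 29.2 and 48.1 in invasive and 30.5, 17.2 and 25.9 in core libraries. Its invasive and core libraries overlapped, while MK801 libraries lay below all invasive ones at 0.499-fold (log2 -0.98, SE 0.31, limma adjusted p = 0.379).

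RFC3, a subunit of the clamp loader, was the exception. It had 5.65, 5.05 and 9.38 FPKM in MK801, 10.2, 7.19 and 12 in invasive and 13.0, 10.7 and 15.7 in core libraries, so its core libraries were the highest by mean and its MK801 libraries lay below all of core (log2 -0.90, SE 0.27, unadjusted p = 0.00768, limma adjusted p = 0.235). RFC2, in the same complex, had 23.7, 13.6 and 8.03 FPKM in MK801, 18.8, 24.7 and 16.7 in invasive and 11.9, 8.74 and 9.97 in core libraries. The ratio of RFC2 to RFC3 was 4.20, 2.70 and 0.856 in MK801, 1.39 to 3.44 in invasive and 0.634 to 0.911 in core libraries. Transcripts of RFC2 had 52.8% GC and those of RFC3 41.3%, and this ratio was not taken with the GC trend (below) removed. RPA2, of the single-strand binding protein RPA and the most abundant fork factor, had 57.4, 35.7 and 27.1 FPKM in MK801, 47.8, 39.3 and 42.8 in invasive and 35.4, 33.6 and 31.0 in core libraries. It separated the fractions narrowly (log2 0.37, SE 0.27, limma adjusted p = 0.307), a difference that turned to -0.043 after quantile normalization. In TPM it was -0.002, but 0.40 above the median of all genes, against 0.39 in FPKM. RPA1, RPA3, RFC5 and FEN1, the flap nuclease, were 1.23-fold to 1.51-fold higher in the invasive fraction without overlap, and RFC4 did not separate the fractions (1.03-fold).

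The nucleotide supply genes also split, into a pair of pyrimidine enzymes and the rest. TK1 (ENSG00000167900, chromosome 17, 78174075 to 78187233), which salvages thymidine in S phase, had 79, 23.5 and 8.16 FPKM in MK801, 58.0, 103 and 60.6 in invasive and 16.7, 9.23 and 13.2 in core libraries. It had the largest difference of all members between the fractions, 5.66-fold (log2 2.40, SE 0.63, limma adjusted p = 0.0985), and its MK801 libraries spanned from the invasive range to below core (MK801 over invasive log2 -1.47, SE 0.63, limma adjusted p = 0.564). TYMS, which makes thymidylate de novo, had 5.61, 2.31 and 1.70 FPKM in MK801, 6.92, 5.08 and 6.17 in invasive and 2.59, 1.77 and 3.36 in core libraries (invasive over core log2 1.00, SE 0.33, limma adjusted p = 0.106). It shares 39.2% of its exon bases with ENOSF1 on the other strand, which averaged 0.394 FPKM.

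Ribonucleotide reductase did not follow TK1 between the fractions. RRM1, its large subunit, had 8.68, 8.11 and 9.98 FPKM in MK801, 11.4, 15.8 and 14 in invasive and 12.7, 10.5 and 16.1 in core libraries. Invasive and core libraries overlapped (log2 0.07, SE 0.22), and all MK801 libraries were below all controls, at 0.650-fold of invasive (limma adjusted p = 0.526) and with an adjusted p of 0.235 against core. RRM2, the small subunit, had 7.13, 5.15 and 4.03 FPKM in MK801, 10.7, 8.18 and 10.7 in invasive and 10.3, 5.21 and 9.85 in core libraries, again with MK801 below all invasive libraries. DUT, which removes dUTP, overlapped between all groups. The 5 genes summed to 113, 44.7 and 31.9 FPKM in MK801, 96.3, 141 and 105 in invasive and 51.6, 34.4 and 52.5 in core libraries, a sum that TK1 dominates in MK801 replicate 1 and the invasive libraries.

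The 3 genes of chromatin copying were higher in the invasive fraction without overlap (32.0% of all genes), with a median of 0.87. With the GC trend of each library removed that median was 0.27, with UHRF1 at log2 0.26, CHAF1A at 0.27 and CHAF1B at 1.25. UHRF1 (ENSG00000276043, chromosome 19, 4903080 to 4962154), which brings DNA methyltransferase to newly copied DNA, had 9.38, 9.40 and 7.38 FPKM in MK801, 21.0, 15.1 and 16.2 in invasive and 11.4, 7.82 and 8.16 in core libraries. Its 3 MK801 libraries agreed closely and lay below all invasive ones (log2 -0.92, SE 0.23, unadjusted p = 0.0021, limma adjusted p = 0.251), the smallest p of any member in that comparison. CHAF1B, of the assembly factor that puts histones on new DNA, had 7.12, 4.33 and 2.86 FPKM in MK801, 7.76, 7.60 and 7.40 in invasive and 3.55, 2.06 and 2.87 in core libraries. It separated invasive from all others (invasive over core log2 1.19, SE 0.28, limma adjusted p = 0.0906). CHAF1A, its partner, was 1.93-fold higher in invasive than core libraries.

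At the G1/S boundary E2F1 and CCNE1 went apart. E2F1 (ENSG00000101412, chromosome 20, 33675683 to 33686404), an activator of S-phase genes, had 27.0, 10.2 and 3.71 FPKM in MK801, 22.0, 17.7 and 19.6 in invasive and 6.39, 3.77 and 5.57 in core libraries. Its invasive and core libraries did not overlap, at 3.77-fold (log2 1.75, SE 0.51, limma adjusted p = 0.106), while MK801 replicate 1 was above all invasive and replicate 3 below all core libraries. CCNE1, cyclin E1, which drives CDK2 at S-phase entry, had 4.35, 2.23 and 1.67 FPKM in MK801, 1.36, 1.55 and 1.41 in invasive and 1.45, 0.982 and 1.37 in core libraries. Each MK801 library was above all 6 control libraries, which held for this member alone of 44 (1.48% of all genes). The difference was log2 0.56 against invasive (SE 0.26, limma adjusted p = 0.657) and 0.67 against core (SE 0.26, unadjusted p = 0.0292, limma adjusted p = 0.235), and between the fractions 0.11. CCNE2, cyclin E2, was too low to test, with 0, 0.192 and 0.553 FPKM in MK801, 0.177, 0.341 and 0.490 in invasive and 0.482, 0.238 and 0.827 in core libraries. The 0 in MK801 replicate 1 allows a level of up to 0.0482 FPKM (3 fragments, counting error only), and 37.1% of its exon bases are shared with INTS8.

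**Figure D3:**
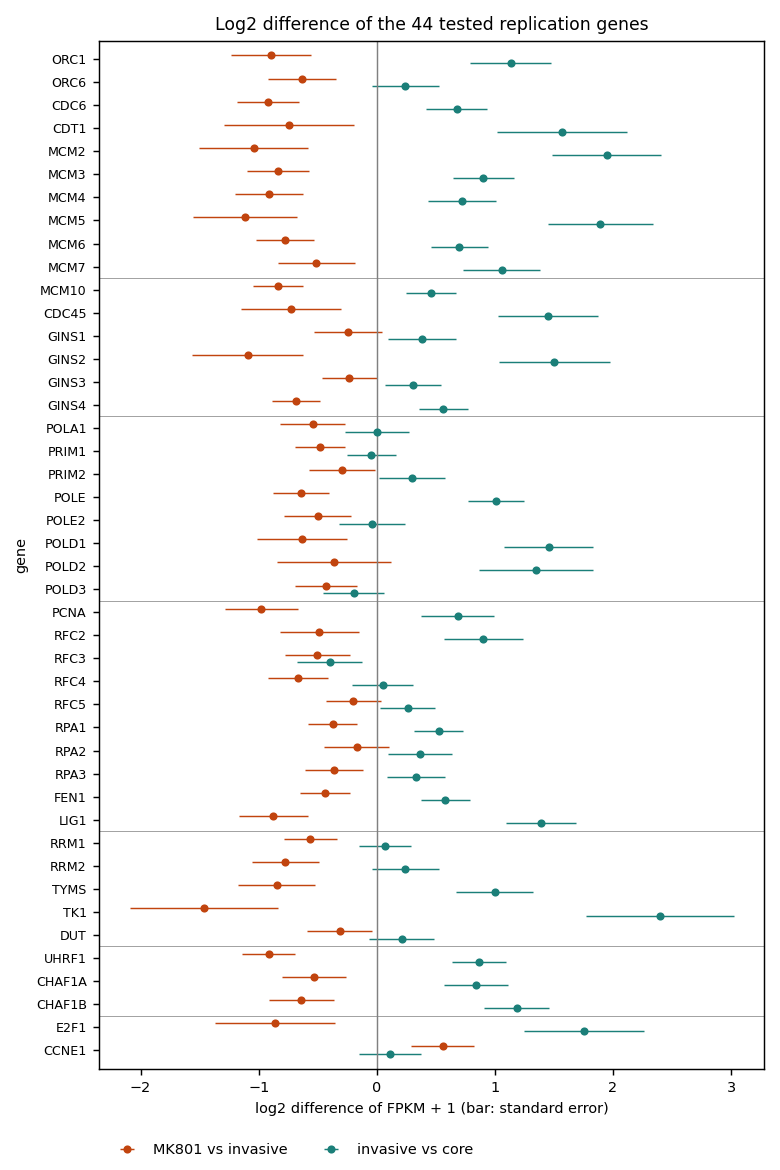
Points give the log2 difference of FPKM + 1 for every tested member and bars its standard error, ordered by class, in one colour for MK801 over invasive and in another for invasive over core. All members but CCNE1 are below 0 for MK801 over invasive, and 40 of 44 are above 0 for invasive over core, where TK1, MCM2, MCM5 and E2F1 reach furthest.

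The MK801 libraries had a larger SD than both control fractions for 27 of 44 members and not for 17, among them UHRF1, RRM1, MCM4 and PCNA. The same count was not made over all genes, so it shows no trait particular to replication genes. For MCM2 the MK801 libraries spread as 22.6 ± 16.7 FPKM, against 40.1 ± 8.17 in invasive and 9.81 ± 3.01 in core libraries (SD, n = 3 each), and for TK1 as 36.9 ± 37.3, 73.9 ± 25.4 and 13.1 ± 3.74 FPKM in the same order. MK801 replicate 1 was the highest of the MK801 libraries for 35 of 44 members (79.5%, against 41.1% of all genes), and replicate 3 the lowest for 27 (61.4%, against 43.3% of all genes). Members below the lowest invasive library numbered 22 in MK801 replicate 1, 42 in replicate 2 and 39 in replicate 3, which is 50.0, 95.5 and 88.6%, against 36.8, 26.7 and 39.4% of all genes. Replicate 2 thus had the most members, and the fewest of all genes, below the invasive range.

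**Figure D4:**
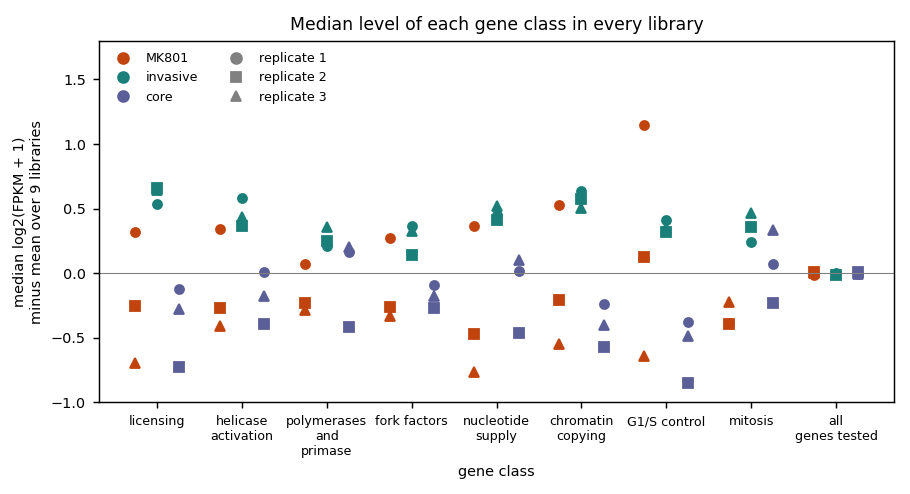
The vertical axis gives, for each class in each library, the median over its tested members of log2(FPKM + 1) minus the gene's mean over the 9 libraries, with MK801 at the left, then invasive, then core, and the symbol naming the replicate. Licensing stands at 0.53 to 0.66 in invasive and -0.73 to -0.13 in core libraries, MK801 replicates 1, 2 and 3 stand at 0.32, -0.25 and -0.69, and the median of all genes stays near 0.

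The differences ran with the GC content of the transcripts. Across the 44 members, the log2 difference between invasive and core correlated with GC content with a Spearman's rho of 0.831, and across all genes with 0.774, a description over genes that share the same 9 libraries. For MK801 over core it was 0.815 for members and 0.783 for all genes, and for MK801 over invasive -0.381 and -0.248. The members' own GC content was not unusual, with a median of 49.1% against 49.2% for all genes tested, but the classes differed, from 44% for polymerases and primase and 45.6% for nucleotide supply to 51.3% for licensing and 57.2% for chromatin copying. Among members with GC content at or below the median of all genes, 19 of 23 were higher in the invasive fraction with a median of 0.30, against -0.51 for all genes in that range. Above it 21 of 21 were higher, with a median of 1.13 against 0.52 for all genes there. Set against core, MK801 was higher for 7 of the 23 members at or below that median (-0.24, against -0.43 for all genes there) and for 19 of the 21 above it (0.52, against 0.42).

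With each library's GC trend removed, 43 of 44 members were higher in the invasive fraction, with a median of 0.68. Limma then gave 33 members higher at an unadjusted p under 0.05 (12% of all genes) and 0 lower (9.33%), and called 0 members after adjustment. Class medians then stood at 0.92 for licensing, 0.84 for helicase activation, 0.64 for polymerases and primase, 0.56 for nucleotide supply, 0.54 for fork factors and 0.27 for chromatin copying, which became the lowest class. FEN1 stood at 0.20. MCM2, MCM5 and E2F1 moved from log2 1.95, 1.89 and 1.75 to 1.32, 1.3 and 1.03. GINS2 (1.34), CDC45 (1.26), CHAF1B (1.25), MCM6 (1.19) and PRIM2 (1.06) then stood above E2F1. PRIM1, POLE2, POLA1 and RRM1, whose means were alike in both fractions before (log2 -0.05 to 0.07), stood at log2 0.62, 0.67, 0.53 and 0.52, and RFC3 turned to 0.23. The split within the polymerase class thus depended on this correction. In the nucleotide class TK1 (1.70) and TYMS (0.87) still stood above RRM2 (0.56), DUT (0.56) and RRM1. On the 6 control libraries with the trend removed, limma called 27 members higher (9.09% of genes) and 0 lower (7.42%), 21 of them among the 26 called without the correction. For MK801 over invasive, 43 of 44 remained lower by mean, with 28 at an unadjusted p under 0.05 (8.44% of all genes) and 1 higher (6.71%), and 0 members called. For MK801 over core, 28 members were then higher and 16 lower. Limma gave 1 higher (5.98% of all genes) and 2 lower (5.91%) at an unadjusted p under 0.05, and called 0. Against core, PRIM1, RRM1 and RFC3 moved from log2 -0.53, -0.49 and -0.90 to 0.06, -0.12 and -0.35, while CCNE1 stayed higher at 0.54.

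**Figure D5:**
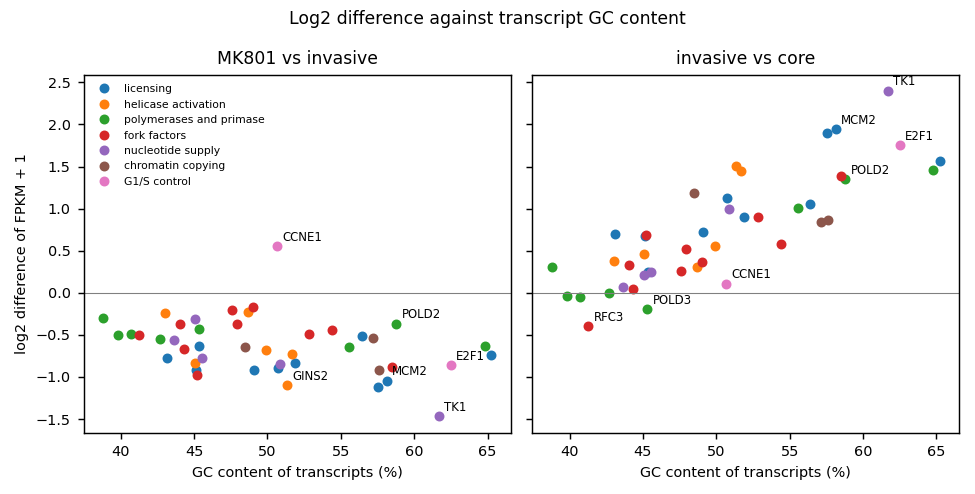
Each point is a tested member, coloured by class, with the GC content of its transcripts in percent on the horizontal axis and the log2 difference on the vertical axis, MK801 over invasive at the left and invasive over core at the right. On the right, values climb with GC content, with RFC3 and POLD3 at the low end and TK1 at the top. On the left, all members but CCNE1 lie below 0 at every GC content.

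Other genes of the pathway were counted from lists that exclude the members. Of 30 further replication genes tested, 11 were higher and 11 lower in the invasive fraction without overlap (32.0% and 32.8% of all genes), with a median of -0.13, and 24 were lower in MK801 than in the invasive fraction, 5 without overlap (5.63% of all genes). This list had a median GC content of 42.9%, and all genes at or below the median GC content had an invasive over core median of -0.51. TIMELESS, a fork protection factor, had 4.98, 3.58 and 1.94 FPKM in MK801, 6.87, 4.73 and 6.41 in invasive and 2.5, 0.991 and 2.30 in core libraries. PCLAF, a PCNA-binding protein, had 1.02, 0.937 and 0.704 FPKM in MK801, 2.21, 2.31 and 2.98 in invasive and 2.16, 1.73 and 2.54 in core libraries, with MK801 below all controls. Of 11 further nucleotide genes, 9 were higher by mean in the invasive than the core fraction, led by DTYMK, the thymidylate kinase (log2 1.37, SE 0.35, limma adjusted p = 0.098), and by CTPS1, a CTP synthase (log2 0.78, SE 0.22, limma adjusted p = 0.103).

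Of 24 further RB, E2F and CDK genes, 11 were higher and 13 lower by mean in the invasive fraction, and likewise 11 and 13 in MK801 over invasive. MYBL2, a transcription factor made at S-phase entry, had 29.2, 10.2 and 3.88 FPKM in MK801, 29.3, 41.3 and 30.6 in invasive and 6.78, 3.96 and 6.69 in core libraries, with the invasive and core libraries far apart (log2 2.36, SE 0.53, limma adjusted p = 0.0868). CDKN1A, the CDK inhibitor p21, had 184, 154 and 93.4 FPKM in MK801, 92.7, 121 and 72.0 in invasive and 65.8, 83.2 and 51.7 in core libraries. MK801 libraries lay above all of core (log2 1.06, limma adjusted p = 0.235) and overlapped the invasive ones (log2 0.57, limma adjusted p = 0.764). Of 10 replication checkpoint genes, 7 were lower by mean in the invasive than the core fraction (median -0.40) and 6 were higher in MK801 than in the invasive fraction (median 0.13). This list had a median GC content of 43.3%. All genes at or below the median GC content of genes tested had medians of -0.51 and 0.07 in these comparisons, so the list did not stand below them between the fractions. RAD9A and HUS1, both of the checkpoint clamp, had invasive over core differences of log2 0.56 and -0.73.

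Mitosis genes were lower in MK801 than in the invasive fraction for 30 of 30 tested, 9 without overlap (5.63% of all genes), with a median of -0.68. Against core, 21 were lower in MK801, 11 without overlap (8.82% of all genes), with a median of -0.46. Between the fractions 16 were higher by mean in the invasive one, 14 without overlap (32.0% of all genes), and 14 lower, 2 without overlap (32.8%), with a median of 0.24. At an unadjusted p under 0.05 limma gave 11 higher (20.3% of all genes) and 0 lower (17.4%). The mitosis list had a median GC content of 44.6%. All genes at or below the median GC content of genes tested had medians of -0.43 for MK801 over core, near that of the list. For MK801 over invasive theirs was 0.07, and for invasive over core -0.51. Values with the GC trend removed are not given for this list. MKI67, which encodes the proliferation antigen Ki-67, had 3.84, 3.73 and 3.41 FPKM in MK801, 7.07, 7.59 and 8.7 in invasive and 6.59, 3.92 and 7.12 in core libraries. MK801 was below all control libraries, though replicate 2 of core came near it, and the MK801 libraries differed little (MK801 over invasive log2 -0.91, SE 0.23, limma adjusted p = 0.259). KIF20A, a mitotic kinesin, had 5.48, 6.10 and 4.04 FPKM in MK801, 13.6, 10.1 and 11.3 in invasive and 7.95, 5.22 and 8.17 in core libraries.

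Some markers of other cell types moved with the difference between the fractions, and others went the other way. The 8 fibroblast and pericyte markers summed to 83.1 to 197 FPKM in MK801, 351 to 618 in invasive and 70.5 to 145 in core libraries. All 6 that were tested were higher in the invasive fraction without overlap (32.0% of all genes). COL1A1, COL1A2 and PDGFRB made up most of that sum, while DCN and RGS5 stayed under 1 FPKM in all 9 libraries. RGS5, a pericyte marker, went the other way, at 0 to 0.460 FPKM in MK801, 0.0570 to 0.166 in invasive and 0.385 to 0.589 in core libraries. Endothelial markers summed to 1.34 to 1.6 FPKM in MK801, 1.78 to 5.32 in invasive and 1.34 to 1.5 in core libraries, and 3 of the 5 stayed under 1 FPKM. CDH5 made most of the rise, at 0.0354 to 0.558 FPKM in MK801, 0.758 to 3.15 in invasive and 0.00591 to 0.0730 in core libraries. PECAM1, the only one tested, was alike in both fractions (log2 0.02), and KDR overlapped. Microglial and macrophage markers summed to 2.68 to 5.17, 4.33 to 5.84 and 1.82 to 3.09 FPKM in the same order. CSF1R gave 1.19 to 4.55, 3.98 to 5.74 and 1.71 to 2.46 FPKM of these, and the other 5 stayed under 1 FPKM. Of those, PTPRC went the other way, at 0 to 0.0336 FPKM in MK801, 0 to 0.00546 in invasive and 0.0274 to 0.0699 in core libraries. AIF1, CD68 and CD14 also had lower means in invasive than core libraries, though their libraries overlapped, and ITGAM was at 0 in both fractions. The part of these markers, of the number of genes detected and of the GC content in the replication gene differences was not tested.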

How the data were processed

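RNA sequencing libraries of poly-A selected RNA were deposited by the authors as FPKM per gene, with the gene length used. HISAT2 2.0.5 and featureCounts 1.5.0-p3 on GRCh38 are listed in the submitters' processing notes; strand use is not given in the sources used here. FPKM times gene length came out as whole multiples of 1 fragment for 100% of values (tolerance 0.01), so fragments could be recovered, 15.6 to 54.4 M per library. The limit for 0 is 3 fragments and covers counting error only. Values were analysed as log2(FPKM + 1), which understates differences of low genes. Genes at 1 FPKM or more in at least 3 libraries were tested (11845) with limma 3.58.1 in R 4.3.3, 1 mean per group, all 9 libraries, empirical Bayes with trend, 6 residual degrees of freedom, Benjamini-Hochberg over all genes tested, threshold 0.05. Folds are ratios of mean FPKM. GC content came from GENCODE 29 transcripts, and its trend was removed by loess (span 0.3) in each library.

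The members and lists were chosen with earlier results of these data known. Named in full are, in each class, the members with the smallest p over the 3 groups, the most abundant one, and per comparison the members with the smallest p; ORC1, CDC6, CDT1, RFC2, POLD3, POLA1, PRIM1, RRM1 and RRM2 were added after their values were seen. Other choices tried were the pseudocount, the filter, TPM, median-of-ratios and quantile scaling, voom, a replicate block, the groups compared alone, GC removal, library weights and leaving out each library. The fit was also run on simulated data, whose outcome is not given here, and nothing above rests on it.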

Additional observations from a re-analysis of the deposited data

How the results depend on the processing

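In invasive versus core, the 9-library limma fit called 0 members. It called 26 higher with only the 2 groups compared (26.3% of genes higher, 25.9% lower) and 27 with the GC trend also removed (9.09% and 7.42%). Without MK801 replicates 1 and 3 it called 26 (26.3% and 25.8%). These last choices, the GC removal on 2 groups and leaving out both replicates, were made after seeing the data. With library quality weights it called 30 (33.1% and 32.8%). Leaving out 1 library gave 0 to 24, the 24 without MK801 replicate 1 or 3 (20.2% and 21.9% of genes higher). The median log2 difference of 0.68 became 0.88 with a filter of 5 FPKM, 0.39 in TPM (0.70 above the median of all genes before, 0.65 and 0.80 above it in these) and 0.46 to 0.80 leaving out 1 library, lowest without core replicate 2. In MK801 versus core, library weights called 27 members, 12 higher and 15 lower (34.4% and 31.7% of genes). Leaving out 1 library gave 0 to 17, the 17 without MK801 replicate 3 (25.2% of genes higher and 24.9% lower). The median of 0.10 became -0.26 in TPM, where the median of all genes was -0.37 and the members' excess of 0.10 over it became 0.11, and -0.15 to 0.22 leaving out 1 library. In MK801 versus invasive, weights called 42 members, 1 higher and 41 lower (15.9% and 14.5% of genes), leaving out 1 library 0 to 1, and the median ranged from -0.84 to -0.51. The weights were very uneven, 6.94 for MK801 replicate 2 but 0.162 and 0.156 for replicates 1 and 3. In MK801 versus invasive, POLD2 ranged from -0.936 to 0.179 and RPA2 from -0.459 to 0.067 when 1 library was left out, both turning sign without MK801 replicate 3, and signs turned in invasive versus core for RFC3 with the GC trend removed (0.226) and RPA2 after quantile normalization (-0.043), whose causes were not tested. RPA2 (-0.002) and CCNE1 (-0.151) also turned in TPM, which shifted all genes, and against the median of all genes they stayed 0.403 and 0.254 higher. Over the named genes, 859 of 1001 values kept sign and side of the threshold, 134 newly passed it and 8 turned.

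With the replicate number as a block, limma called 20 members higher in invasive versus core (11.7% of genes) and 0 in the other comparisons, and with the GC trend also removed 0 in all of them (32 members higher at an unadjusted p under 0.05 in invasive versus core). Column codes of same-numbered core and invasive libraries begin alike, which could mark a shared device, but no label states it. Same-numbered libraries of different groups had deviations correlated from -0.15 to 0.61, and 5 of the 9 libraries correlated best with their own number. Such correlations over 3 libraries a group cannot decide whether the libraries are pairs. The numbers were not taken to pair them because no label states it. If core and invasive libraries of 1 number do share a device, the fit without the block ignores that pairing.

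Depth limits genes under about 1 FPKM, such as POLA2 and CCNE2, most. With 3 libraries a group and MK801 libraries that disagree, a call that misses the threshold does not show that levels were alike.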
